A study of Caenorhabditis elegans with 4 samples.

Results

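The regulators that keep germ line stem cells of Caenorhabditis elegans dividing, send their daughters into meiosis and decide whether these become sperm or oocytes were examined in L3 larvae. The set names 10 genes, and 8 of them (glp-1, gld-1, gld-2, gld-3, fbf-2, nos-3, fog-3 and fem-3) were found under their symbols in the annotation of the array, on 9 of 21632 probes. All 9 probes gave a value on each of the 4 arrays, so no filter on missing values removed a member. fbf-1 and fog-1 had no probe under their names and are not analysed here. A further probe annotated with gld-1 together with another gene was not used.

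Each of 4 arrays compared RNA of wild-type animals at the L3 larval stage (channel 2, preparations numbered 1 to 4) with a mixed reference, also wild type (channel 1). The labels give neither sex, age in hours or the make-up of the reference, nor whether the numbered preparations are separate cultures. The p-values thus rest on how far the preparations differ, which may be technical variation only, and take the reference as fixed. The array titles end in what reads as a date, and its month is the same for preparations 1 and 2 and for 3 and 4, so each pair is also given alone. Values are log2 ratios, likely L3 over reference, with each array centred on its median. The dyes are not labelled, so this direction rests on the order of names in the labels, and a constant dye effect on a probe cannot be told apart from a true difference. In these whole animals, fewer germ cells and less RNA per germ cell cannot be told apart either.

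In this germ line a somatic cell at the tip of the gonad, the niche, presents a Notch ligand to the germ cells, and the Notch receptor GLP-1 keeps the cells nearest to it in division. The PUF proteins FBF-1 and FBF-2 hold stem cells back from meiosis by repressing mRNAs, among them that of gld-1. GLD-1, a KH-domain RNA-binding protein that represses translation, and the poly(A) polymerase pair of GLD-2 and GLD-3 promote entry into meiosis along separate branches, with the Nanos-related protein NOS-3 acting in the GLD-1 branch. Hermaphrodites make sperm first and oocytes later. FOG-1, FOG-3 and FEM-3 are needed for the sperm fate, and FBF together with NOS-3 lowers fem-3 activity at the switch to oocytes.

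The arrays held between 21058 and 21472 values, their deposited medians lay between -0.03 and 0.02, and Pearson's r across probes was between 0.620 and 0.723 for the 6 pairs of arrays. In the marker counts, lower and higher mean a limma adjusted p under 0.05. By this rule 10.8% of all genes and probes were lower and 8.31% higher. Against the reference, the 3 yolk protein genes had preparation medians between -6.80 and -4.95, and all 3 were lower in L3. All 10 oocyte and embryo markers were lower too (preparation medians between -3.87 and -3.31). Of 10 germ cell markers (P granule and meiotic chromosome genes) 3 were lower and 0 higher, with preparation medians between -0.49 and 0.24. This count of 3 fell to 0, 2, 0 and 1 without preparations 1 to 4 in turn. Of 10 sperm markers 1 was lower and 0 higher, with medians between -0.29 and 0.60. Of 6 soma markers 4 were higher, and the lowest mean of the 6 was 0.33. The part of these shifts in the results for the regulators was not tested.

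The 8 regulators did not move as a block. Relative to the reference, gld-1, fem-3 and gld-3 were at least 2-fold lower in L3, glp-1 was lower by less, and nos-3, gld-2 and fbf-2 lay near 0. fog-3 had the highest mean and was above 0 on 4 of 4 arrays without passing the test. In limma, with Benjamini-Hochberg adjustment over all 19943 genes and probes tested and a threshold of 0.05, 4 of 8 passed on the low side, where 10.8% of all genes and probes passed, and 0 of 8 on the high side, where 8.31% passed (19.1% in either direction). Below 0 on 4 of 4 arrays were 4 of the 8, against 23.7% of the genes and probes measured on every array, and above 0 on 4 of 4 was 1, against 22.5%. At an unadjusted p under 0.05 there were 5 of 8, against 35.1% of all tested. The median of the 8 means was -0.34, beside 0.02 over everything tested.

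**Figure D1:**
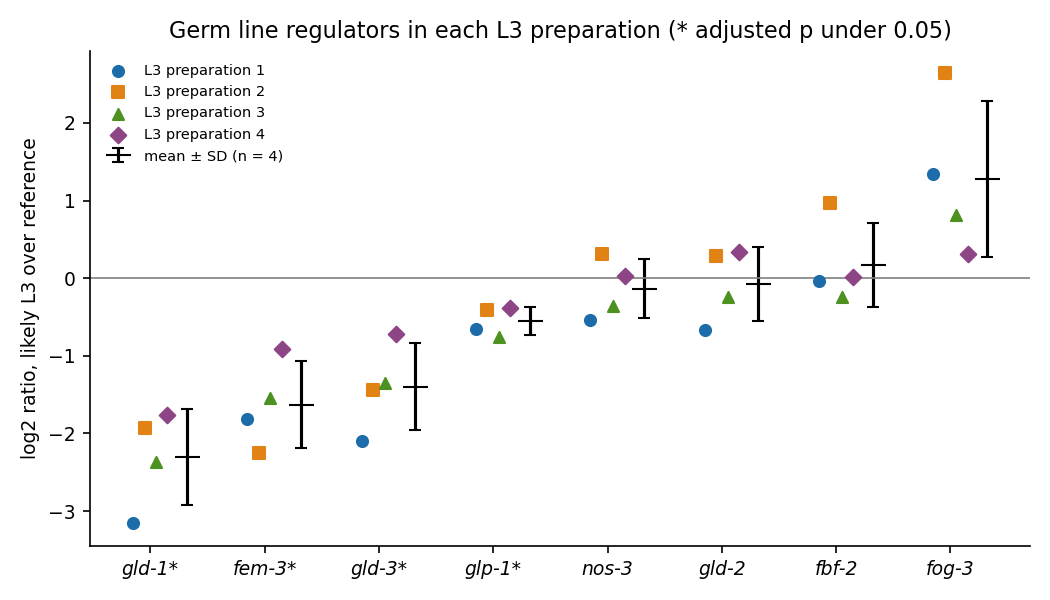
Log2 ratio, likely L3 over reference (y axis), of each of the 8 measured regulators (x axis, ordered by mean) in the 4 L3 preparations, with the mean and SD (n = 4) in black. gld-1, fem-3, gld-3 and glp-1 lie below 0 in every preparation and fog-3 above 0 in every preparation, while nos-3, gld-2 and fbf-2 have values on both sides.

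The receptor that reads the niche signal was slightly lower in L3. glp-1 lay at -0.65, -0.41, -0.75 and -0.38 in preparations 1 to 4, a narrow band entirely below 0. Its mean was -0.55 ± 0.18 (SD, n = 4), 1.46-fold lower (95% confidence interval 1.14 to 1.88), with limma adjusted p = 0.0493. Of the 8 regulators glp-1 had the smallest SD, and on each array between 13.3% and 30.4% of genes and probes had a lower ratio. The call sits at the threshold: it was lost without any 1 preparation (limma adjusted p from 0.0742 to 0.160, means from -0.61 to -0.48), in preparations 1 and 2 alone (adjusted p = 0.261) and in 3 and 4 alone (0.206).

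The stem cell repressor gene fbf-2 did not pass the test. It lay at -0.04, 0.97, -0.25 and 0.01, so preparation 2 stood above the others, which were close to 0. The mean was 0.17 ± 0.54 (95% confidence interval -0.38 to 0.73, limma adjusted p = 0.623), and without preparation 2 it was -0.09. The genes fbf-1 and fbf-2 are close paralogs, so the fbf-2 probe may also bind fbf-1 transcript.

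Among the regulators of meiotic entry, gld-1 had the lowest ratio of the 8. It lay at -3.16, -1.93, -2.37 and -1.76 in preparations 1 to 4, far below 0 in each. The mean was -2.31 ± 0.62, 4.94-fold lower in L3 (95% confidence interval 3.25 to 7.53, limma adjusted p = 0.00267), and 1.35% of genes and probes had a lower mean. It was the lowest regulator on 3 of the 4 arrays, and on the array of preparation 2 fem-3 was lower. The call held without each preparation in turn (means from -2.49 to -2.02, limma adjusted p from 0.00662 to 0.0152).

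Of the partners of the poly(A) polymerase, gld-3 passed the test and gld-2 did not. gld-3, whose KH-domain product binds and stimulates GLD-2, lay at -2.09, -1.44, -1.35 and -0.72, below 0 in all preparations and nearest to 0 in preparation 4. Its mean of -1.40 ± 0.56 was 2.64-fold lower in L3 (95% confidence interval 1.78 to 3.91, limma adjusted p = 0.0105). This call was missed in preparations 3 and 4 alone (mean -1.04, adjusted p = 0.0657), where the mean in 1 and 2 alone was -1.77. gld-2, which encodes the catalytic subunit, lay at -0.66, 0.29, -0.25 and 0.34, on both sides of 0. Its mean was -0.07 ± 0.48 (95% confidence interval -0.58 to 0.44, limma adjusted p = 0.834), and without preparation 1 the sign turned (0.13).

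The ratio of gld-2 exceeded that of gld-3 on every array, by 1.43, 1.73, 1.10 and 1.06 log2 units in preparations 1 to 4. The mean difference of 1.33 ± 0.31 was larger than its spread. An exact two-sided sign-flip permutation test gave p = 0.125, the smallest value this test can give with 4 arrays, so it cannot pass the threshold here. Such differences compare the ratios to the reference and not the abundance of the transcripts. A constant dye effect on either probe cannot be told apart from an unequal change. Comparisons of fbf-1 with fbf-2 and of fog-1 with fog-3 had also been planned, and only 1 of the 3 pairs could be measured.

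nos-3, the Nanos-related gene of the GLD-1 branch, lay at -0.54, 0.31, -0.35 and 0.03, with 2 preparations on each side of 0. The mean was -0.14 ± 0.38 (95% confidence interval -0.59 to 0.32, limma adjusted p = 0.633). It is the only member with 2 probes, and these differed by at most 0.14 log2 units on any array, less than the differences between preparations. The 4 regulators of meiotic entry thus spanned from gld-1 to gld-2, with 2 lower and 2 not passing.

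The measured sperm-fate genes, fem-3 and fog-3, lay on opposite sides of 0, and only fem-3 passed the test. fem-3, which acts with FEM-1 and FEM-2 to set the male program and is needed for sperm, lay at -1.82, -2.25, -1.55 and -0.91, below 0 in each preparation. The mean was -1.63 ± 0.56, 3.09-fold lower in L3 (95% confidence interval 2.09 to 4.58, limma adjusted p = 0.00644). The call held in preparations 1 and 2 alone (-2.03, adjusted p = 0.0215) and in 3 and 4 alone (-1.23, adjusted p = 0.0441).

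fog-3, which encodes a Tob-family protein needed for germ cells to become sperm, lay at 1.34, 2.64, 0.81 and 0.31. All 4 values were above 0, and they were widely spread, with preparation 2 highest and 4 lowest. The mean was 1.28 ± 1.00, or 2.42-fold higher (95% confidence interval 1.31 to 4.48). It missed the threshold (unadjusted p = 0.0120, limma adjusted p = 0.0580), and 96.2% of genes and probes had a lower mean. Without preparations 1, 2 and 3 in turn it did not pass (means 1.25, 0.82 and 1.43, adjusted p = 0.160, 0.0768 and 0.102), and without preparation 4 it did (1.60, adjusted p = 0.0455). It also passed with arrays scaled to a common spread (1.15, adjusted p = 0.0219) or quantile normalized (1.21, adjusted p = 0.0225). In preparations 1 and 2 alone the mean was 1.99 (adjusted p = 0.0456) and in 3 and 4 alone 0.56 (adjusted p = 0.230). The sperm marker medians stood in the same order, at 0.35, 0.60, 0.11 and -0.29 in preparations 1 to 4, and their part in the fog-3 values was not tested.

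**Figure D2:**
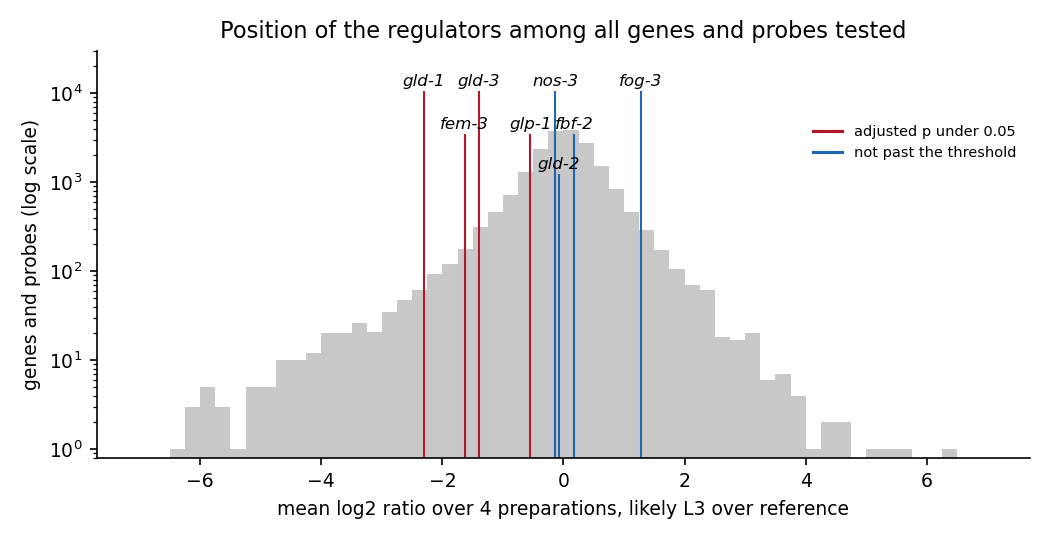
Histogram of the mean log2 ratio over 4 preparations (x axis) of all 19943 genes and probes tested (y axis, log scale), with the 8 regulators as vertical lines, red where the adjusted p was under 0.05. gld-1, with 1.35% of means below it, is near the low end, fog-3, with 96.2% below it, is on the high side, and nos-3, gld-2 and fbf-2 stand in the bulk.

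Ordered by mean, the regulators ran gld-1, fem-3, gld-3, glp-1, nos-3, gld-2, fbf-2 and fog-3. Of the 28 pairs, 21 had 1 order on all 4 arrays. The order by mean comes from these same arrays, so some of this agreement is built in. The share among pairs drawn from all genes was not counted. Between neighbours, glp-1 was above gld-3 by 0.85 ± 0.48, nos-3 above glp-1 by 0.41 ± 0.25 and fog-3 above fbf-2 by 1.10 ± 0.59, each on 4 of 4 arrays. The remaining neighbours did not differ beyond their spread: gld-1 and fem-3 by 0.68 ± 0.70, fem-3 and gld-3 by 0.23 ± 0.44, nos-3 and gld-2 by 0.07 ± 0.18 and gld-2 and fbf-2 by 0.25 ± 0.49. Outside neighbouring pairs, gld-1 was below gld-3 on 4 of 4 arrays, by 0.905 ± 0.274.

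The preparations differed in how far the regulators lay from the reference. The median of the 8 was -0.66, -0.06, -0.55 and -0.18 in preparations 1 to 4. In preparations 1 and 3, 7 of 8 were below 0, and in preparations 2 and 4 this held for 4 of 8. The germ cell marker medians were -0.44, 0.24, -0.49 and -0.39, so preparation 2 was the highest on both measures.

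The regulators were also set against the germ cell marker median of the same array, a description added after the values were seen. These medians lay between -0.49 and 0.24, so they could not bring gld-1, fem-3 or gld-3 to 0 on any array. The description is not a correction for germ cell number. gld-1 was below the marker median by a mean of -2.03 ± 0.56 log2 units, fem-3 by -1.36 ± 0.83 and gld-3 by -1.13 ± 0.66, each on 4 of 4 arrays. glp-1 was below it on 3 of 4 arrays (-0.28 ± 0.28). fbf-2 (0.44 ± 0.20) and fog-3 (1.55 ± 0.72) were above it on 4 of 4, and nos-3 (0.13 ± 0.22) and gld-2 (0.20 ± 0.40) on 3 of 4.

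**Figure D3:**
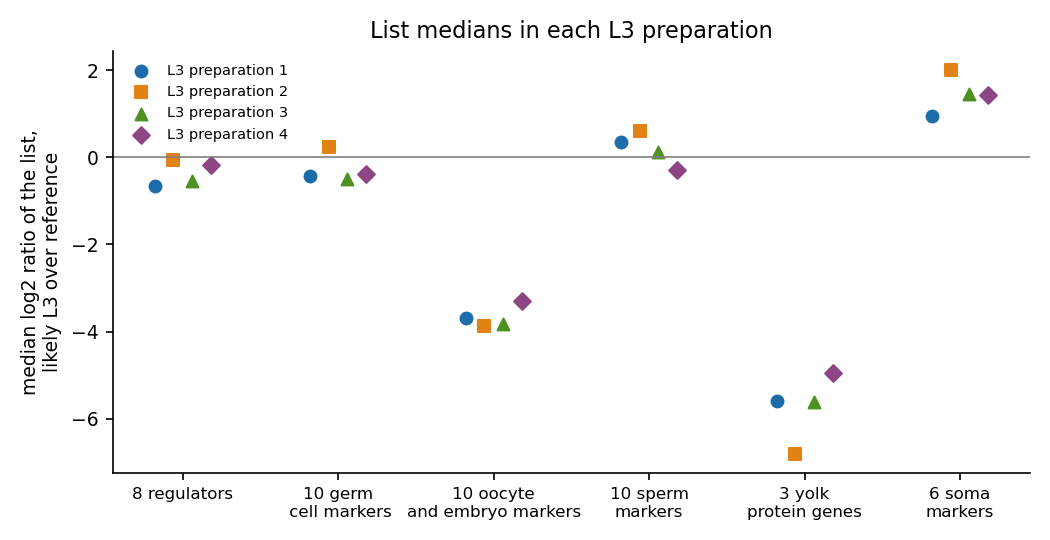
Median log2 ratio, likely L3 over reference (y axis), of the 8 regulators and of 5 marker lists (x axis) in each of the 4 L3 preparations. The regulators (-0.66 to -0.06) and germ cell markers (-0.49 to 0.24) lie near 0, the oocyte and embryo markers (-3.87 to -3.31) and yolk genes (-6.80 to -4.95) far below it, and the soma markers above it.

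Other genes of Notch signalling were lower or did not pass, and none passed on the high side. Of 16 listed, 14 were measured, 5 were lower and 0 higher, with a list median of -0.38. Among all genes and probes 10.8% were lower and 8.31% higher. The direct GLP-1 target genes lst-1 and sygl-1, whose products work with FBF in stem cells, lay at -0.90 ± 0.15 (limma adjusted p = 0.00959) and -0.94 ± 0.22 (limma adjusted p = 0.0103), below 0 on 4 of 4 arrays. Also lower were hop-1 (-1.25 ± 0.35), a presenilin gene, and aph-1 (-0.83 ± 0.21), which like presenilin belongs to the gamma-secretase that cleaves Notch receptors. lag-1, the transcription factor that acts with the cleaved receptor, lay at -0.57 ± 0.20 (limma adjusted p = 0.0453). The call of lag-1 was lost without any 1 preparation (adjusted p from 0.0766 to 0.155), that of aph-1 when 1 or 3 was left out (adjusted p = 0.0527 and 0.0646) and that of sygl-1 without 1 (adjusted p = 0.0502). Without preparation 1, 2 of the 14 were lower, and without preparation 3, 3 were. Of the 5, only hop-1 passed in preparations 1 and 2 alone (limma adjusted p = 0.0428) and only lst-1 in 3 and 4 alone (0.0475). sygl-1 passed in neither pair (limma adjusted p = 0.105 and 0.0660). The niche ligand gene lag-2 is not analysed here.

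Of 14 sex determination genes listed, 10 were measured, 1 was lower and 0 higher, with a median of -0.04. The count of 1 in 10 is near the 10.8% of all genes and probes that were lower. The lower one was fog-2, whose F-box product binds GLD-1 and allows hermaphrodites to make sperm. It lay at -0.32, -1.06, -1.23 and -1.12, with preparation 1 nearest to 0 (mean -0.93 ± 0.41, limma adjusted p = 0.0224), and it no longer passed when preparation 2, 3 or 4 was left out (limma adjusted p = 0.0585, 0.0847 and 0.0708). The genes for the FEM-3 partners did not pass, with fem-1 at 0.06 ± 0.22 (limma adjusted p = 0.812) and fem-2 at -0.40 ± 0.21 (limma adjusted p = 0.122). her-1, which encodes a secreted male-promoting signal, lay at -0.31 ± 0.37 (limma adjusted p = 0.275). Of the mog genes and mep-1, needed for the switch from sperm to oocytes, 6 of 8 listed names were measured. Of these, 0 passed in limma in either direction (median -0.13), where 19.1% of all genes and probes passed. The mean furthest from 0 was that of cyn-4 (-0.31 ± 0.24), which encodes a cyclophilin. tra-1 and tra-2 are not analysed here.

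Of 25 germ line RNA regulators listed beyond the 8, 20 were measured, 10 were lower and 0 higher, with a median of -1.20. Among all genes and probes 10.8% were lower and 8.31% higher. The lowest were the PUF genes puf-5 (-4.39 ± 0.60), puf-7 (-2.41 ± 0.26) and puf-6 (-2.20 ± 0.98) and the Nanos gene nos-2 (-2.85 ± 0.28), whose limma adjusted p-values lay between 0.000425 and 0.00982. puf-6 and puf-7 are near-identical in sequence, so their probes may bind both transcripts, and of the 2 probes for puf-6 only 1 passed when tested alone (-2.90, adjusted p = 0.00121, against -1.50, adjusted p = 0.157). The gene for RNP-8, an alternative partner of GLD-2, was lower (-1.38 ± 0.40, limma adjusted p = 0.00582), but did not pass in preparations 1 and 2 alone (-1.19, adjusted p = 0.0692). gld-4, which encodes another germ line poly(A) polymerase, lay at -3.16, -1.55, -0.43 and -0.48, further below 0 in preparations 1 and 2 than in 3 and 4. It did not pass (mean -1.40 ± 1.28, limma adjusted p = 0.0797). It passed in 1 and 2 alone (-2.35, adjusted p = 0.0427). puf-8, a PUF gene of stem cells, was at the threshold without passing it (-0.80 ± 0.50, limma adjusted p = 0.05002) and passed without preparation 2 (-1.04, adjusted p = 0.0139). gls-1 is not analysed here.

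Of a list of 9 mRNAs known to be bound by GLD-1, all 9 were measured, 7 were lower in L3 and 0 higher, with a median of -2.64 and preparation medians between -2.82 and -2.42. egg-1, an egg surface receptor gene, lay at -4.40 ± 0.29, oma-2, an oocyte maturation gene, at -4.27 ± 0.57, rme-2, the yolk receptor gene, at -3.68 ± 0.57 and spn-4, a maternal RNA-binding protein gene, at -3.65 ± 0.05, with limma adjusted p-values between 0.000246 and 0.000598. These 4 are transcripts of oocytes, and the oocyte and embryo marker list had a median of -3.67. The share called lower in each list is to be read beside the 10.8% of all genes and probes, and the lists' difference from other genes was not tested.

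**Figure D4:**
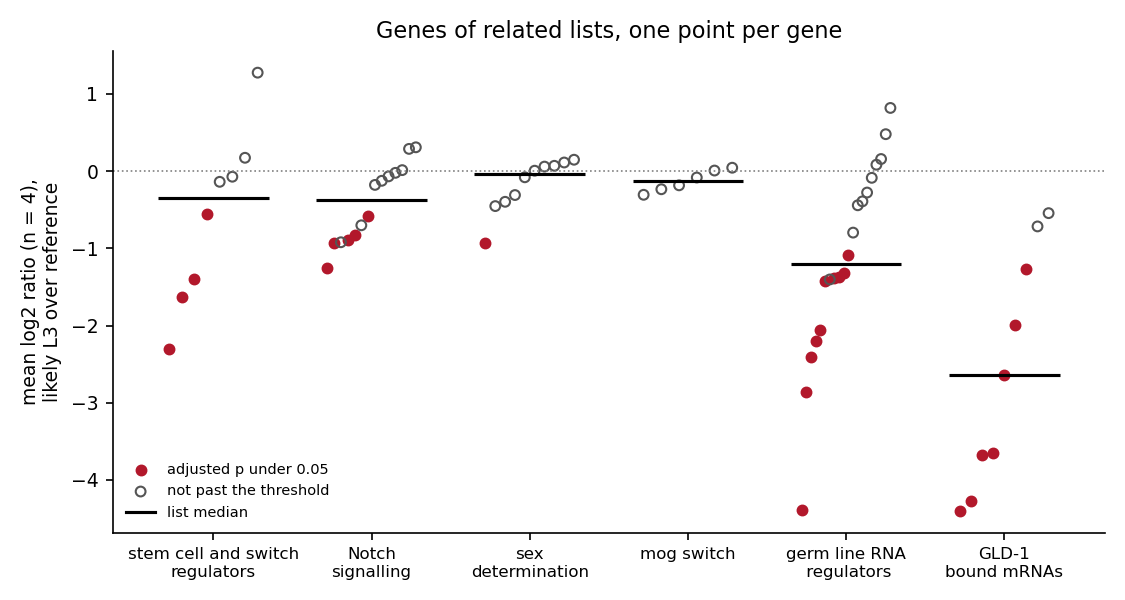
Mean log2 ratio (n = 4, y axis) of every measured gene in the set of 8 regulators and in 5 related lists (x axis), with filled points where the limma adjusted p was under 0.05 and a bar at each list median. The medians run from -0.04 for sex determination genes to -2.64 for GLD-1 bound mRNAs, and no gene shown passed on the high side.

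The genes whose 4 ratios lay nearest to those of gld-1, by Euclidean distance among 14562 other named genes measured on 4 arrays, were adh-1 (distance 0.32), lea-1 (0.60) and daf-18 (0.67). Those nearest to glp-1 were D1007.8 (0.11), plp-1 (0.12) and H04M03.12 (0.12). With 4 arrays, this likeness describes the values only.

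Across 14 alternative settings the calls of gld-1 and fem-3 held in each, that of gld-3 in 13 and that of glp-1 in 6. fog-3 passed in 5 of its 14 settings. The settings are not independent checks. Those on the filter, variance moderation, month block and single probes left the means of these 5 genes unchanged.

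**Figure D5:**
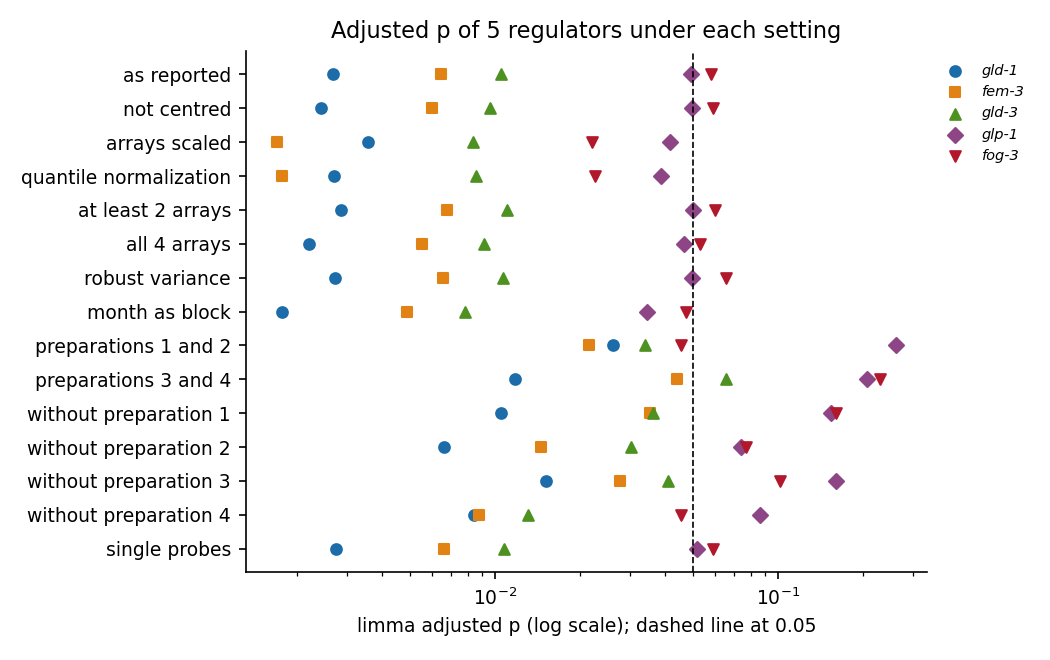
Limma adjusted p (x axis, log scale, dashed line at 0.05) of 5 regulators as reported and under 14 alternative settings (y axis). gld-1 and fem-3 stay left of the line in every setting, and gld-3 crosses it in preparations 3 and 4 alone. glp-1 and fog-3 have settings on both sides of it, up to an adjusted p of 0.261 and 0.230.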

How the data were processed

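The authors deposited 1 log2 ratio per probe and array for 21632 probes; the background correction, normalization and spot filter behind them, not given in the sources used here, could shift every ratio. Between 99.96% and 100.0% of the deposited log2 values, turned back into ratios, were multiples of 0.001 (within 0.02 of a step). Of the probes, 16450 carried 1 symbol in an annotation table, 247 several and 4935 none; for 16360, Entrez numbers gave the current RefSeq WBcel235 symbol. Each array was centred on its median, probes of a gene were averaged, and the 19943 genes or probes present on 3 or more arrays were tested with limma 3.58.1 in R 4.3.3 (lmFit, eBayes, intercept only, two-sided, Benjamini-Hochberg). The fit was checked on simulated data. The number of arrays limits the precision. The members and lists were chosen with earlier results of these data known. Named were the 8 members, fixed pathway genes and the 3 genes nearest to gld-1 and glp-1. Of each related list, up to 4 passing genes with means furthest from 0 were named (or the furthest where none passed). The lists not otherwise described are adult cuticle markers (2 measured, 1 lower). Alternatives changed the centring, scaling, filter, probe averaging, variance moderation, title month (as a block, and each month alone) and preparations.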

Additional observations from a re-analysis of the deposited data

Results flagged for a closer look

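Of 29 named genes measured on 4 arrays, 1 had a preparation far from the others by Dixon's criterion, where chance gives about 1 in 20. cyn-4 lay at -0.66 in preparation 1 against -0.23, -0.17 and -0.16 in preparations 2 to 4. None of the 8 regulators was among them.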

How the results depend on the processing

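The arrays give no counts or intensities, so signal over background is unknown and 4 arrays limit every test. Beyond the ratio of L3 and reference within each array, no paired analysis of sample groups was possible because the series has 1 group. The cause of the changes below was not tested, except that settings with fewer preparations also had fewer arrays in the fit. Over all genes and probes, 3806 passed as reported, 2043, 2601, 1979 and 2962 without preparations 1 to 4, 1495 in preparations 1 and 2 alone, and 1694 with only 3 and 4. Among the 8 regulators, 2 were lower in preparations 3 and 4 alone, and 1 was higher with scaled arrays, 1 with quantile normalization, 1 with the month read from the array titles as a random block (correlation -0.117) and 1 in preparations 1 and 2 alone. With 1 preparation left out, 3 were lower each time and 0 to 1 higher. Means turned sign for gld-2 (0.044 in preparations 3 and 4, and from -0.208 to 0.126 with 1 preparation left out), fbf-2 (-0.118 in 3 and 4, and from -0.0922 to 0.314) and fem-1 (-0.0165 in 3 and 4, and from -0.0225 to 0.144). In preparations 1 and 2 alone, 1 Notch gene, 0 sex determination genes and 6 RNA regulators were lower, with medians of -0.62 for the Notch and -0.23 for the sex determination list. In preparations 3 and 4 alone, 1 Notch gene was lower, and medians were -0.15 for Notch, 0.00783 for sex determination, 0.0462 for mog genes and -0.0502 for sperm markers. With 1 preparation left out, 2 to 4 Notch, 0 to 1 sex determination and 8 to 10 RNA regulator genes were lower and 0 to 1 RNA regulators higher, with medians from -0.24 to 0.00386 for mog genes and from -1.25 to -0.92 for RNA regulators. Of 259 values that answer a comparison, mostly list counts and medians without a p-value of their own, 236 kept their direction and stayed close. Of the others, 20 moved further and 3 changed sign. Many of these counts were 0 throughout and could hardly move. Of 660 values for single genes and marker lists, 600 stayed the same by these rules. Among the rest, 31 lost a call, 13 gained 1, 9 moved and 7 changed sign. The difference between gld-2 and gld-3 lay between 1.20 and 1.42 without any 1 preparation.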

Other observations

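cpb-2, which encodes a CPEB-type RNA-binding protein of the fog-1 family and was chosen after its values were seen, lay at 0.83, 1.55, 1.00 and -0.10 in preparations 1 to 4 (mean 0.82 ± 0.68, limma adjusted p = 0.0823). As for fog-3, preparation 2 was highest and preparation 4 lowest. Of the 10 sperm markers, 6 were highest in preparation 2, 8 were lowest in preparation 4 and 5 were both. The spread of all values (median absolute deviation) was also largest in preparation 2 (0.859) and smallest in preparation 4 (0.414). In preparations 1 and 3 it was 0.563 and 0.575. The share of all genes with the same extremes was not counted, and the part of the spread in them was not tested.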
